A study of Mus musculus with 4 samples.

Results

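Resting fibroblasts of the mouse heart were followed in single nuclei by 6 genes, Scara5, Hsd11b1, Lvrn, Col6a6, Abca6 and Enpp2. They comprised 929 nuclei, out of 3890 fibroblast nuclei, 20609 nuclei within the limits on UMIs and mitochondrial RNA, and 41706 barcodes in all. A UMI (unique molecular identifier) counts 1 captured RNA molecule. Nuclei were chosen by their own counts. A nucleus needed at least 500 UMIs, at most 5% of them from mitochondrial genes, and under 3% from 7 cardiomyocyte genes (Ttn, Myh6, Ryr2, Tnnt2, Actn2, Mybpc3 and Ctnna3). It had to hold no UMI of the endothelial genes Pecam1 and Cdh5 or the macrophage gene Csf1r, and at least 3 UMIs over 9 fibroblast genes (Dcn, Pdgfra, Col1a1, Col1a2, Col3a1, Lum, Abca8a, Ddr2 and Fbln1). Within these fibroblast nuclei, a resting nucleus held at least 2 UMIs over the 6 resting genes, and more of them than over 7 genes of activated fibroblasts (Postn, Cilp, Nox4, Comp, Col8a1, Ltbp2 and Mfap4). The values of these 32 genes therefore describe the nuclei and were not tested.

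The libraries came from hearts of mice aged 8 weeks, taken 2 weeks after tamoxifen, and were made on BD Rhapsody, a microwell system in which barcoded beads capture the RNA of single nuclei. Control libraries are titled MCM cre/+ and their genotype tag reads wt, while the cKO (conditional knockout) libraries are titled PKP2fl/fl MCM cre/+, so the titles give the Cre allele to both groups, and a separate label gives tamoxifen to both. Each library pooled hearts of 1 male and 1 female mouse, with 2 libraries per group, and the library is the replicate. The labels do not name the promoter of the Cre, and their cell type tag reads cardiomyocyte although all libraries held fibroblasts. Nuclei came from frozen tissue punches and were tagged with an antibody to a nuclear pore protein for sorting. Pkp2 encodes plakophilin 2, a desmosomal protein that joins heart muscle cells. In the resting nuclei Pkp2 gave 13 and 54 UMIs in control 1 and control 2 and 6 and 18 in cKO 1 and cKO 2. Its log2 fold change was 0.70 (SE 0.48, edgeR adjusted p = 0.831). Which exons are floxed is not stated, so these counts do not check the deletion. Esr1, the estrogen receptor alpha gene, had a log2 fold change of 0.53 (SE 0.35, edgeR adjusted p = 0.828).

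Cardiac fibroblasts keep the collagen scaffold of the heart muscle. Undisturbed hearts hold quiescent fibroblasts that express the stromal genes of the tissue, and injury turns part of them into activated cells that secrete periostin and fibrillar collagen. Among the genes that chose the resting nuclei, Scara5 encodes a scavenger receptor that takes up ferritin, Hsd11b1 the enzyme that regenerates active glucocorticoid, and Lvrn a membrane aminopeptidase. Col6a6 encodes a chain of collagen VI, Abca6 a transporter of the ABC family, and Enpp2 autotaxin, the secreted enzyme that makes lysophosphatidic acid. In GENCODE M21 (GRCm38) Scara5 lies on chromosome 14 (65666403 to 65764826), Abca6 on chromosome 11 (110176820 to 110251776) and Enpp2 on chromosome 15 (54838901 to 54952892).

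Promoters of Hsd11b1 and Col6a6 are shown as examples of the genes that define the resting nuclei, because the RefSeq table used here (GRCm38.p6) had entries for these 2 of the 6. Each window spans 250 bases before to 50 after the start, and both lie on the minus strand. The window of Hsd11b1 is chr1:193242311-193242610, inside the GENCODE gene model (193221634 to 193264075), and that of Col6a6 is chr9:105828036-105828335. Capitals mark the CCAAT letters in Hsd11b1 and the GGGCGG letters, read on either strand, in Col6a6:
Hsd11b1: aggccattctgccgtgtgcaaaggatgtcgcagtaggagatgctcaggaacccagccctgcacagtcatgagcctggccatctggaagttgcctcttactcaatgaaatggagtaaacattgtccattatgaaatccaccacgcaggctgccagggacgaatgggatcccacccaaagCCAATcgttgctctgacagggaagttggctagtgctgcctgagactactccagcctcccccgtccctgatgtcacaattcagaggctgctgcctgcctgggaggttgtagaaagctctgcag
Col6a6: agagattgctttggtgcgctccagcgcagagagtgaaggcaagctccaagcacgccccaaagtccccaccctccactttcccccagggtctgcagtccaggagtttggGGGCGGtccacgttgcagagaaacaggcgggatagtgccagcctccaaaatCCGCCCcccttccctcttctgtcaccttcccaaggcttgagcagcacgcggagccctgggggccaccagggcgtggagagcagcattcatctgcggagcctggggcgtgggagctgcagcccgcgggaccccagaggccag
The Hsd11b1 window held 1 match to CCAAT, which 37.4% of 32544 promoters of this length hold, and the Col6a6 window held 2 matches to GGGCGG, which 35.9% hold. Neither window held AGAACA (18.9% of promoters), CATTCC (14.6%), TGANTCA (7.79%) or TATAAA (13.6%), all searched on both strands. The letters were picked after these sequences had been seen, and a match describes the sequence only.

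Resting nuclei made up a far larger part of the fibroblasts in the control than in the cKO libraries. They were 208 of 491 fibroblast nuclei in control 1, or 42.4% (exact Clopper-Pearson 95% interval 37.9 to 46.9), and 583 of 1293 in control 2, or 45.1% (42.4 to 47.8). In cKO 1 they were 29 of 643, or 4.51% (3.04 to 6.41), and in cKO 2 they were 109 of 1463, or 7.45% (6.16 to 8.92). The intervals cover counting error only. The groups did not overlap, and both control libraries stood well above both cKO libraries. The mean share was 43.7% ± 1.93 (SD, n = 2) in controls and 5.98% ± 2.08 in the cKO libraries, 7.31-fold lower in the latter. A two-sided exact permutation test over libraries gave p = 0.333, the smallest that 2 against 2 libraries allow, and the rule itself used genes that differ between the groups, so the share is a description.

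Activated nuclei, which met the same fibroblast conditions and held at least 2 UMIs over the 7 activated genes and more than over the resting genes, took the opposite course. Their mean share of fibroblast nuclei was 27.0% ± 1.56 (SD, n = 2) in controls and 76.3% ± 1.14 in the cKO libraries. The fibroblast nuclei in neither class made up 29.3% ± 3.49 and 17.7% ± 0.942. Fibroblasts as a whole held a similar part of the kept nuclei, 16.4% and 20.1% in controls and 16.5% and 20.1% in the cKO libraries. Of all kept nuclei, resting fibroblasts were 8.01% ± 1.51 and 1.12% ± 0.530. The activated class of controls rested mostly on Col8a1, found in 87.4% and 93.4% of its nuclei, with Postn in 18.1% and 12.7%. In the cKO libraries these were 91.5% and 93.1% for Col8a1 and 53.2% and 43.7% for Postn. Without Col8a1 in the rule, the activated share was 7.65% ± 1.85 in controls and 59.1% ± 4.36 in the cKO libraries.

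**Figure D1:**
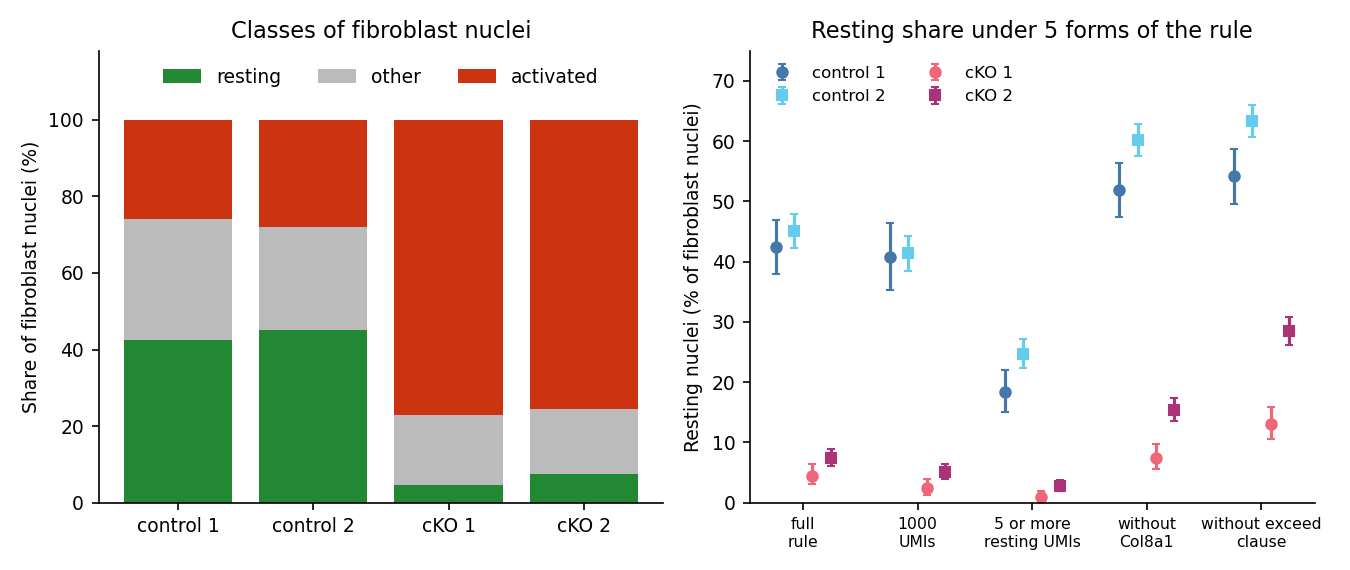
Left, share (%) of resting, other and activated nuclei among the fibroblast nuclei of each library. Right, share (%) of resting nuclei in each library under 5 forms of the rule, where points are libraries and bars are exact 95% intervals of counting error. Under the full rule the control libraries sit at 42.4% and 45.1% and the cKO libraries at 4.51% and 7.45%.

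Depth and the clause on activated genes moved the size of this gap but not its direction. The depth of the nuclei overlapped between the groups, with median UMIs per resting nucleus of 1091 and 1623 in controls and 1210 and 1854 in the cKO libraries. With every nucleus thinned to 1000 UMIs and shallower ones left out, the resting share was 40.8% and 41.4% in controls and 2.38% and 5.10% in the cKO libraries. Without the clause that resting UMIs exceed activated UMIs, it was 54.2% and 63.3% against 13.1% and 28.4%, which is 2.83-fold lower in the cKO libraries. Both steps together gave 52.5% and 52.6% against 6.62% and 13.7%. With Col8a1, the activated gene with the most UMIs in resting nuclei, left out of the rule, the shares were 51.9% and 60.2% against 7.47% and 15.4%.

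Nuclei near the threshold were counted on both sides of it. Members with exactly 2 resting UMIs numbered 46 and 63 in controls and 11 and 23 in the cKO libraries. Just outside, 38 and 74 control and 14 and 21 cKO nuclei held 1 resting UMI and no activated one. Another 19 and 55 control and 7 and 17 cKO nuclei held at least 2 resting UMIs and an equal number of activated ones. Nuclei with at least 2 resting UMIs but more activated ones numbered 39 and 181 in controls and 48 and 290 in the cKO libraries. No resting UMI at all was found in 136 of 491 and 270 of 1293 control and in 445 of 643 and 766 of 1463 cKO fibroblast nuclei.

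Most members carried at least 2 of the 6 genes, which the demand for at least 2 resting UMIs favours in advance. Only 1 of the genes was carried by 28 of 208 members in control 1 and 61 of 583 in control 2. In cKO 1 and cKO 2 these were 8 of 29 and 33 of 109. At least 2 different resting genes were found in 86.5% and 89.5% of control members and in 72.4% and 69.7% of cKO members. The median number of resting UMIs was 4 and 5 in controls and 3 and 4 in the cKO members. Lvrn was the gene most often present, in 75.5% and 72.2% of control and 44.8% and 62.4% of cKO members. Lvrn was the only resting gene in 14 of 208, 34 of 583, 1 of 29 and 13 of 109 members, in the order control 1, control 2, cKO 1 and cKO 2.

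All 6 genes were lower over the whole set of fibroblast nuclei of the cKO libraries. Values here are CPM, a gene's UMIs scaled to a common total for each library's summed nuclei, with no other normalization. Lvrn measured 904 and 733 CPM in controls and 78.1 and 162 CPM in the cKO libraries, and Hsd11b1 298 and 281 against 30.4 and 57.7 CPM. Scara5 measured 223 and 286 against 33.0 and 62.1 CPM, and Abca6 296 and 383 against 95.4 and 149 CPM. For Col6a6 the values were 139 and 163 against 37.3 and 47.7 CPM, and for Enpp2 they were 139 and 127 against 33.8 and 43.9 CPM. Control and cKO libraries did not overlap for any of the 6 genes, and cKO 1 was the lowest of the 4 libraries for each of them.

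The same genes were closer together inside the resting nuclei, where the rule asks for them. Lvrn still measured 1796 and 1277 CPM in control against 485 and 785 CPM in cKO members, with no overlap. Hsd11b1 measured 568 and 469 against 311 and 358 CPM and Scara5 431 and 484 against 291 and 220 CPM. Col6a6 overlapped, with 286 and 293 CPM in control and 311 and 229 CPM in cKO members. The plot of resting gene levels sets both views side by side.

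**Figure D2:**
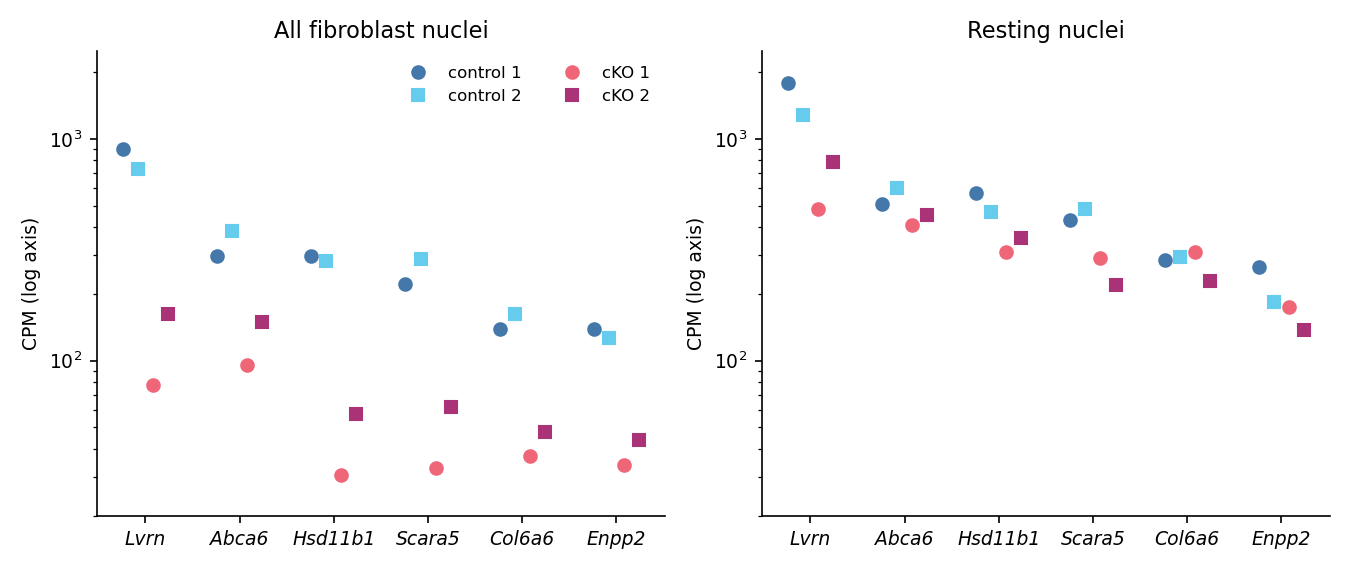
CPM (log axis) of the 6 resting genes in the summed counts of all fibroblast nuclei (left) and of resting nuclei only (right), with 1 point per library. On the left the control libraries lie above the cKO libraries for each gene; on the right Col6a6 overlaps, and Lvrn spans 485 to 1796 CPM.

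Free RNA can place UMIs in nuclei that do not express a gene, so detection was set beside that in cardiomyocyte nuclei, those with at least 3% of UMIs from the 7 cardiomyocyte genes. After thinning to 1000 UMIs, Hsd11b1 was detected in 23.5% and 18.4% of control and 3.0% and 5.4% of cKO fibroblast nuclei, against 0.5% and 0.7% of control and 0.7% and 0.5% of cKO cardiomyocyte nuclei. Unthinned, these were 24.2%, 25.9%, 3.9% and 8.2% of fibroblast and 2.2%, 2.5%, 1.8% and 2.4% of cardiomyocyte nuclei. Median depth was 1103, 1589, 1482 and 2049 UMIs in fibroblast and 3244, 4028, 4337 and 5258 UMIs in cardiomyocyte nuclei, in the order control 1, control 2, cKO 1 and cKO 2. Thinned detection of Lvrn was 45.1% and 37.8% against 4.9% and 12.9% of fibroblast nuclei, and 2.2% and 1.1% against 0.8% and 1.0% of cardiomyocyte nuclei. Fibroblast nuclei of all libraries were thus above the cardiomyocyte nuclei for both genes.

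Fibroblast genes were present in the members of all libraries, as the rule requires. Dcn, which encodes the small proteoglycan decorin, measured 2166 and 1985 CPM in control and 2233 and 1977 CPM in cKO members. Abca8a, another transporter of the family of Abca6, measured 4014 and 3151 against 1748 and 1722 CPM. The collagen I gene Col1a1 measured 403 and 307 against 563 and 470 CPM, and the periostin gene Postn 28.2 and 16.6 against 38.8 and 47.5 CPM on 7, 17, 2 and 11 UMIs. In activated nuclei of the same libraries Postn measured 224 and 126 against 1386 and 775 CPM.

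RNA of other cell types was present in the members and differed between libraries. Of 9 marker lists, that of cardiomyocytes, 20 genes without the rule's own, was detected in full in all 4 libraries and summed to 5544 and 6413 CPM in control and 13594 and 7850 CPM in cKO members. The mural list, markers of pericytes and smooth muscle, summed to 862 and 586 against 660 and 1769 CPM, with 9 to 12 of its 12 genes detected and Kcnj8, Myh11 and Cnn1 at 0 in cKO 1. The endothelial list (15 of 15 genes) summed to 2842 and 2797 against 3515 and 3288 CPM, and the macrophage list (10 to 15 of 15) to 427 and 532 against 388 and 557 CPM. At least 3 UMIs of the endothelial list were held by 45.2% and 65.2% of control and 69.0% and 71.6% of cKO members. The Schwann cell list (4 to 9 of 10, with Sox10 at 0 in 3 libraries) summed to 246 and 245 against 427 and 393 CPM. The mesothelial list (2 to 7 of 10, with the keratins Krt8 and Krt18 at 0 in all 4) summed to 109 and 13.7 against 38.8 and 436 CPM. Adipocyte, lymphocyte and valve lists each summed to at most 125 CPM in the members of every library.

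**Figure D3:**
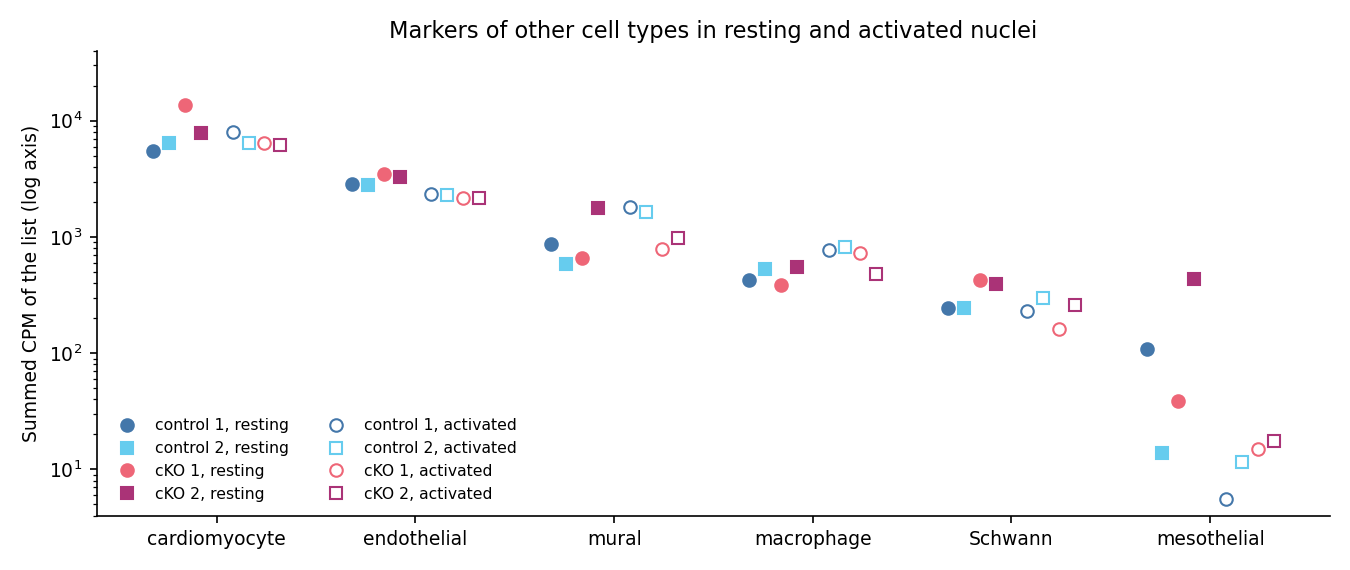
Summed CPM (log axis) of 6 marker lists in resting (filled) and activated (open) nuclei, with 1 point per library. In resting nuclei the cardiomyocyte list is highest in cKO 1 (13594 CPM) and the mural and mesothelial lists in cKO 2 (1769 and 436 CPM).

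A single nucleus weighs on cKO 1. Its 29 members held 51495 UMIs in all, against 248373 and 1021300 in control 1 and control 2 and 231715 in cKO 2, so that 1 UMI stood for 19.4 CPM there. One member had 10895 UMIs, 21.2% of that library's sum, with 2.89% of its UMIs from the cardiomyocyte genes and only 2 resting UMIs. In the other libraries the deepest member held 0.529% to 2.14% of the sum. At most 2 barcodes were shared by any pair of libraries.

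Between groups, few genes passed the threshold within the resting nuclei. With 2 libraries per group and 29 nuclei in cKO 1, a gene or list without a call is not shown to be unchanged. Of 5214 genes tested outside the rule, 12 rose in the cKO members (0.23% of genes) and 0 fell (0.0%), by edgeR's quasi-likelihood test on library sums at an adjusted p under 0.05. At an unadjusted p under 0.05 there were 227 higher and 170 lower genes. DESeq2 called 2 higher genes and 0 lower ones (76 and 34 at unadjusted p under 0.05). The median log2 fold change over all tested genes was -0.01. The labels do not say which mice were littermates, and the p-values measure the spread between these pools. Groups that do not overlap are only a description of a gene. For 2 against 2 libraries that order has p = 0.333 in a two-sided exact permutation test. Its share over all tested genes is not given here. CPM from here on is scaled with edgeR's TMM factors.

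Complement genes were among those that rose. C3, the central complement component, measured 117 and 99.8 CPM in control and 341 and 434 CPM in cKO members (log2 fold change 1.92, SE 0.34, edgeR adjusted p = 0.00258). Its UMIs came from 16 and 70 control and 8 and 32 cKO nuclei, with at most 5 in 1 nucleus of cKO 1 and 16 in 1 nucleus of cKO 2. Clu, which encodes the extracellular chaperone clusterin, measured 14.1 and 23.2 against 341 and 125 CPM (log2 fold change 3.13, SE 0.52, adjusted p = 0.00109), on 3, 20, 15 and 25 UMIs. Both cKO libraries were above both control libraries for either gene. These were 2 of 10 tested complement genes and the median of the 10 was 0.05. Without nuclei holding 3 or more UMIs of the mural, mesothelial or Schwann lists, C3 kept its call (1.91, adjusted p = 0.00455) and Clu lost it (2.87, adjusted p = 0.149), and with under 1% cardiomyocyte UMIs the adjusted p was 0.0400 and 0.273.

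For 5 more of the genes described the groups did not overlap, but their calls held in only part of the alternatives run: Plxna4 in 8 of 17, Egr1 in 8 of 15, Thsd4 in 5 of 16, Cacnb4 in 4 of 16 and Plcb1 in 5 of 19, where the log2 fold change of Plcb1 went down to 0.31, of Thsd4 to 0.53 and of Cacnb4 to 0.88. For C3 and Clu the call held in 10 of 19 and 11 of 18. Plxna4, a semaphorin receptor, measured 51.6 and 66.2 CPM in control and 159 and 324 CPM in cKO members (log2 fold change 2.14, SE 0.39, adjusted p = 0.00258). Plcb1, a phospholipase C that acts below G protein-coupled receptors, measured 145 and 134 against 387 and 389 CPM (1.49, SE 0.33, adjusted p = 0.0251). Both cKO libraries were close to each other for Plcb1. Cacnb4, a calcium channel subunit, measured 32.8 and 31.3 against 114 and 155 CPM (2.17, SE 0.47, adjusted p = 0.0182), on 5 UMIs in cKO 1. Thsd4, which encodes a fibrillin-binding matrix protein, measured 32.8 and 45.3 against 228 and 174 CPM (2.19, SE 0.45, adjusted p = 0.00835). Egr1, an immediate early transcription factor, measured 23.5 and 24.4 against 68.3 and 169 CPM (2.55, SE 0.50, adjusted p = 0.00492). In cKO 1 the 3 Egr1 UMIs came from 1 nucleus.

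Another 4 genes had most of their UMIs of 1 cKO library in few nuclei. Sorbs2, which encodes a cytoskeletal adaptor, gave 112 UMIs in cKO 1, 88 of them in 1 nucleus, the same nucleus that held 10895 UMIs. Without the deepest member of each library its log2 fold change went from 1.99 to 0.70 (edgeR adjusted p = 0.620). Shroom3, an actin-binding regulator of cell shape, gave 21 UMIs in cKO 1, 20 of them in that nucleus. Without cKO 1, Shroom3 kept its call (2.06, adjusted p = 0.00105) on 35 UMIs in 23 nuclei of cKO 2, and the call held in 10 of 13 alternatives. Nrg1, the growth factor neuregulin 1, gave 71 UMIs in cKO 1, 45 of them in 1 nucleus, and 5 UMIs in cKO 2, and its log2 fold change of 3.43 turned to -1.18 without cKO 1. Muc16, a mucin on the mesothelial list, gave 11, 2, 0 and 51 UMIs in control 1, control 2, cKO 1 and cKO 2, and the 51 came from 6 nuclei. For Nrg1 and Muc16 the groups overlapped.

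**Figure D4:**
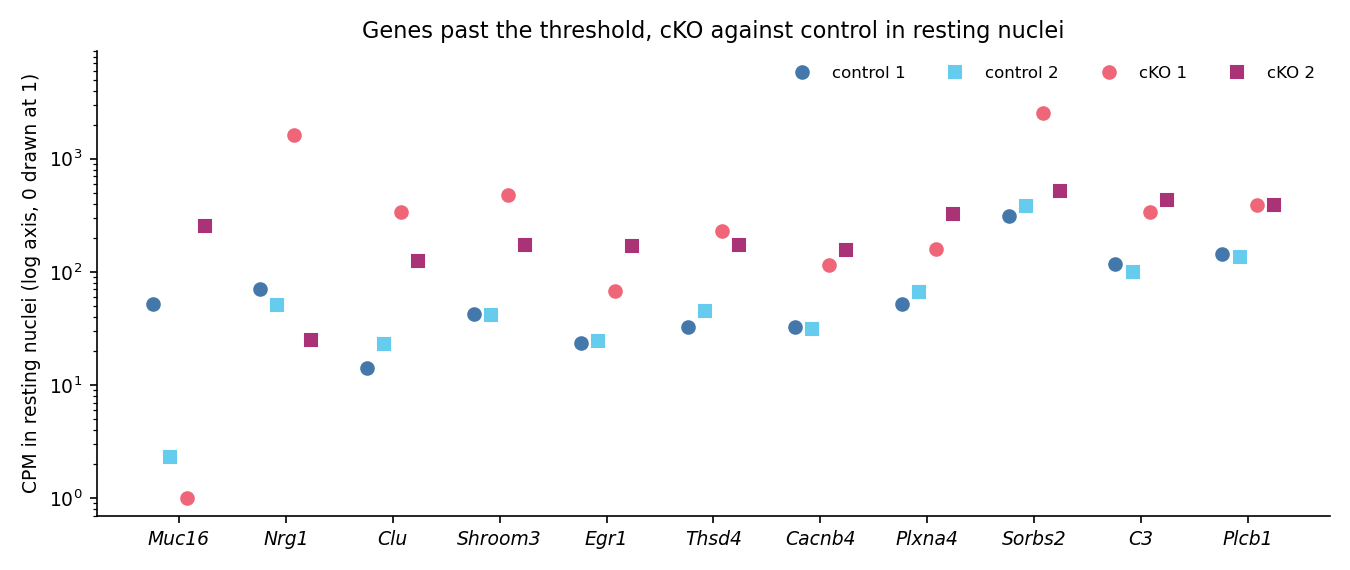
CPM (log axis, 0 drawn at 1) of 11 of the 12 genes past the threshold in the summed counts of resting nuclei, with 1 point per library, ordered by log2 fold change. For Muc16 and Nrg1 1 cKO library lies below a control library; C3 and Plcb1 are close in both cKO libraries.

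The number of calls moved with libraries and with the selection of nuclei. Where a group is left with 1 library, that library is assumed to vary like the other group. It was 5 without control 1, 7 without control 2, 33 without cKO 1 and 46 without cKO 2, where 16 genes also fell, 4 without the nuclei holding other markers, and 0 with nuclei thinned to 1000 UMIs (54 higher and 73 lower at unadjusted p under 0.05). Without the deepest member of each library 5 remained, among them Clu, C3, Plxna4 and Egr1.

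Lists of fibroblast genes were read by their counts. Of 22 tested resident fibroblast genes 0 passed in either direction, 5 had a positive log2 fold change and the median was -0.49, against -0.01 over all genes. Among them Mgp, which encodes matrix Gla protein, measured 868 and 666 CPM in control and 2048 and 1505 CPM in cKO members (log2 fold change 1.20, edgeR adjusted p = 0.114). Abca8b, a further ABC transporter, measured 793 and 669 against 387 and 334 CPM (-1.05, adjusted p = 0.207), and the sodium channel relative Scn7a 924 and 939 against 569 and 528 CPM (-0.78, adjusted p = 0.499). For these 3 genes the groups did not overlap, and none passed. The 15 tested adventitial fibroblast genes had a median of 0.37 with 10 positive, and 0 passed. Pi16, a marker of that population, measured 127 and 140 against 159 and 264 CPM (0.78, adjusted p = 0.590).

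Activation genes outside the rule gave no call in the members. Of the 27 genes of that list 10 were tested, 5 were positive, and the median was 0.00. Cdh11, a cadherin of activated fibroblasts, measured 28.2 and 26.7 CPM in control and 114 and 74.8 CPM in cKO members (log2 fold change 1.63, SE 0.63, edgeR adjusted p = 0.459). Of 15 tested collagen genes 0 passed (median 0.11), and of 15 genes for collagen processing 0 passed (median 0.00). In activated nuclei, where 110 of 10005 genes were called higher (1.1%) and 87 lower (0.87%) in cKO, 13 of 23 tested activation genes rose, with a median of 1.41. That the 2 classes differ is fixed in part by the rule, which set them apart by activation genes.

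Glucocorticoid response genes were read because Hsd11b1 was among the genes that chose the nuclei. Of 14 tested 0 passed, 7 were positive and the median was 0.02. The smallest p of the list was that of Errfi1, an inhibitor of EGF receptor signalling, which measured 127 and 128 CPM in control and 91.0 and 394 CPM in cKO members, with overlap (log2 fold change 1.22, SE 0.38, edgeR adjusted p = 0.207). The receptor chaperone gene Fkbp5 measured 755 and 873 CPM in control and 501 and 623 CPM in cKO members (log2 fold change -0.50, SE 0.31, edgeR adjusted p = 0.793), with both cKO libraries below both control libraries. Of 6 tested genes around lysophosphatidic acid, the product of autotaxin, 0 passed (median -0.31). Its receptor gene Lpar1 measured 328 and 630 against 182 and 374 CPM (-0.66, adjusted p = 0.679), and these overlapped. Of 13 lipid transport genes (median 0.21), 4 scavenger and iron genes (median -0.29), 9 inflammatory genes (median 0.41), 21 genes of TGF-beta and BMP signalling (median 0.10) and 13 YAP targets (median 0.15), 0 passed. Of 19 tested cardiomyocyte markers 19 were positive with a median of 0.64, and of 9 mural markers 9 were positive with a median of 1.44. From either list 0 passed. The higher mural sum was that of cKO 2 (1769 CPM), while cKO 1 (660 CPM) lay between the controls (862 and 586 CPM). What part these moved lists have in the calls above was not tested beyond the values without such nuclei.

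Resting nuclei were then set against activated nuclei of the same libraries. Both classes were formed from counts of the same nuclei, so the test describes how other genes go with the rule. Of 7753 genes outside the rule, 23 were higher (0.297%) and 44 lower (0.568%) in resting than in activated nuclei, by edgeR with the library as a block. Genes of activation and matrix were lower. Ccn2, a target gene of YAP that encodes connective tissue growth factor, measured 73.8, 38.1, 202 and 83.8 CPM in resting and 259, 141, 1145 and 745 CPM in activated nuclei of control 1, control 2, cKO 1 and cKO 2 (log2 difference -2.35, SE 0.21, adjusted p = 5.09e-06). The transcription factor gene Meox1 measured 8.68, 14.2, 20.2 and 23.3 against 96.2, 40.1, 168 and 113 CPM (-2.20, SE 0.34, adjusted p = 0.00262). Runx1, another transcription factor gene, measured 26.0, 20.7, 40.5 and 65.2 against 48.1, 70.6, 162 and 179 CPM (-1.55, adjusted p = 0.00772). For these 3 genes resting nuclei were the lower in 4 of 4 libraries. Meox1 and Runx1 rested on few UMIs in the resting nuclei of cKO 1, where 1 UMI stood for 19.4 CPM of the unscaled sum.

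Thbs4, which encodes the matrix protein thrombospondin 4, had 2, 3, 0 and 0 UMIs in resting and 9, 20, 127 and 276 in activated nuclei in the same order (adjusted p = 0.000442). Of the 17 tested activation genes outside the rule, 6 were lower in resting nuclei and 0 higher, and the list median was -0.69 against 0.00 over all genes. Sparc, which encodes a collagen-binding protein, differed by -0.86 (adjusted p = 0.00960), the BMP and activin binding gene Fstl1 by -0.97 (adjusted p = 0.0129) and the collagen gene Col14a1 by -1.31 (adjusted p = 0.0185). Of 21 tested adventitial genes, 3 were lower in resting nuclei, namely Col14a1, Pi16 (-1.02, adjusted p = 0.0189) and the fibrillin gene Fbn1 (-0.77, adjusted p = 0.0257). None of the list was called higher, although 14 of the 21 were positive and the list median was 0.13. The remaining named genes that were lower were Kcnma1 (-2.87), Dkk3 (-2.18), Pamr1 (-1.91), Tiam2 (-1.83), Prg4 (-1.69), Lhfpl2 (-1.56), Thbs1 (-1.56) and Slc20a1 (-1.32). Thbs4 and Prg4 were the 2 tested genes of the valve list, which also holds Comp of the rule. That list summed to 207 and 161 CPM in control and 542 and 499 CPM in cKO activated nuclei.

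The named genes higher in resting nuclei were so in 4 of 4 libraries unless said. Rgs17, a regulator of G protein signalling, measured 460, 555, 243 and 228 CPM in resting and 192, 350, 72.0 and 116 CPM in activated nuclei (log2 difference 1.00, SE 0.18, edgeR adjusted p = 0.00837). Myrip, which links myosin to vesicles, measured 174, 137, 162 and 112 against 72.2, 64.2, 37.7 and 46.2 CPM (1.32, SE 0.24, adjusted p = 0.00978). The muscarinic receptor gene Chrm3 differed by 1.18 (adjusted p = 0.0170), the scaffold gene Shank3 by 1.19 (adjusted p = 0.0105), the GDNF receptor gene Gfra1 by 1.10 (adjusted p = 0.0352), and Dpyd, which breaks down pyrimidines, by 0.89 (adjusted p = 0.0238). Further named genes were Sncaip (1.48), Kazn (1.26), Acss3 (0.93), Adgrl4 (0.92), Ggt5 (0.89) and Nkain2 (1.42), which had no UMI in the resting nuclei of cKO 1 and was higher in 3 of 4 libraries. Adgrl4 is on the endothelial list, whose 14 tested genes were all positive, with a median of 0.64. Of 23 resident fibroblast genes Lsamp (0.60, adjusted p = 0.0406) and Bmper (0.64, adjusted p = 0.0467) were higher and Ccn5 (-1.25, adjusted p = 0.0392) lower.

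**Figure D5:**
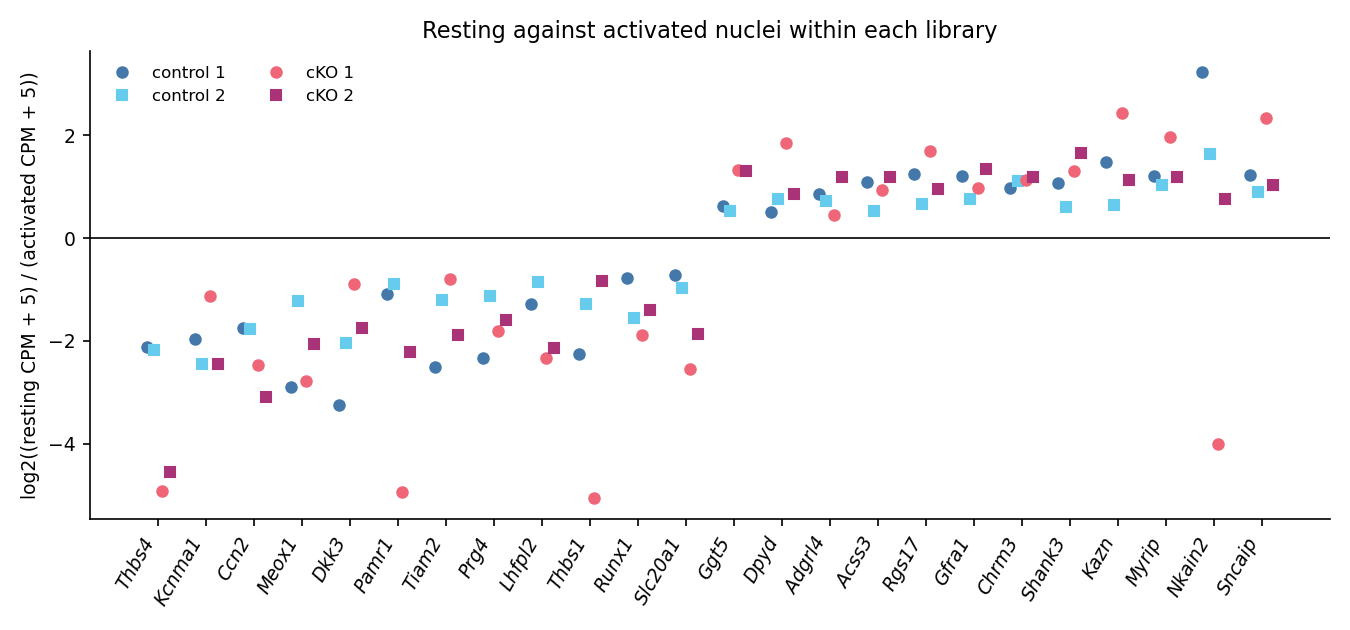
Difference between resting and activated nuclei within each library, as log2 of the ratio of CPM + 5, for the 24 named genes, with 1 point per library. Of the 12 lower genes each has all 4 points below 0, and of the 12 higher genes Nkain2 has cKO 1 below 0.

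Leaving out cKO 2 reduced these counts to 1 higher and 12 lower genes, leaving out control 1 gave 14 and 42, control 2 gave 11 and 28, and cKO 1 gave 17 and 25. DESeq2 called 12 and 18.

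The response of resting nuclei to the cKO was compared with that of activated nuclei by the interaction of class and group. The rule caps activated UMIs in resting nuclei and asks for them in activated nuclei. The activated class also differed in make-up, with Postn in 18.1% and 12.7% of its control and 53.2% and 43.7% of its cKO nuclei. A smaller cKO effect in resting nuclei is therefore fixed in part for genes that go with activation. Among 7753 genes the cKO effect was higher in resting nuclei for 37 (0.477%) and lower for 12 (0.155%), by edgeR at an adjusted p under 0.05. DESeq2 called 0 in either direction, with 125 and 38 at unadjusted p under 0.05. Of 16 collagen and 16 collagen processing genes tested, 0 passed in either direction. Fn1, the fibronectin gene, measured 47.7 and 30.5 CPM in control and 101 and 37.3 CPM in cKO resting nuclei, which overlapped, against 42.1 and 17.6 and then 399 and 202 CPM in activated nuclei (difference of log2 fold changes -2.83, SE 0.58, adjusted p = 0.00736). The zinc finger gene Bnc2 measured 139 and 232 against 162 and 112 CPM in resting and 126 and 207 against 339 and 408 CPM in activated nuclei (-1.81, SE 0.36, adjusted p = 0.00646). Fstl1 measured 530 and 544 against 607 and 689 CPM, and 746 and 754 against 2004 and 1792 CPM (-1.02, SE 0.24, adjusted p = 0.0260). In each of these 3 genes the activated nuclei of both cKO libraries were above those of both controls, while the resting nuclei overlapped for Fn1 and Bnc2.

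Mural markers were among the genes with the higher effect. Of 10 tested mural genes 6 passed, 10 were positive and the median was 2.26, against -0.04 over all genes. Ano1, a chloride channel gene of that list, measured 56.4 and 29.4 CPM in control and 60.7 and 163 CPM in cKO resting nuclei, against 120 and 132 and then 54.9 and 58.3 CPM in activated nuclei (3.02, SE 0.51, edgeR adjusted p = 0.00126). The potassium channel gene Kcnk3 measured 26.0 and 14.2 against 121 and 88.5 CPM in resting and 66.2 and 27.3 against 16.0 and 23.1 CPM in activated nuclei (3.30, SE 0.72, adjusted p = 0.0130). Of 20 cardiomyocyte markers 4 passed, all upward. Beside this, the summed mural list in activated nuclei was 1806 and 1651 CPM in control and 790 and 976 CPM in cKO libraries. Without nuclei holding mural, mesothelial or Schwann markers, 7 and 4 genes passed. Without control 1 the counts were 12 and 4, without control 2 they were 26 and 4, without cKO 1 they were 23 and 8, and without cKO 2 they were 31 and 1.

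Over all fibroblast nuclei, without a condition on resting or activated genes, 238 of 12504 genes were called higher (1.9%) and 150 lower (1.2%) in cKO. These sums mix classes whose shares differ between the groups, and 3 of the 12 genes that rose in the resting nuclei, C3, Egr1 and Plxna4, were among the 238. Resident fibroblast genes there had a median of -0.42, with 2 of 25 up and 5 down, and activation genes outside the rule a median of 1.87, with 16 of 24 up and 0 down.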

How the data were processed

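For each of the 4 libraries the authors deposited a matrix of raw UMI counts (whole numbers, not normalized, as the values show), with a gene and a barcode list. Per the submitters' processing notes the build is mm10. The aligner, the counter, the annotation and the treatment of introns and strand were not given in the sources used here; reads of overlapping or antisense genes cannot be told apart. Of 44628 gene identifiers, 27169 matched GENCODE M21 after version numbers were dropped. Library totals were 13491201 and 35204091 UMIs in control 1 and control 2 and 20992683 and 40536562 in cKO 1 and cKO 2.

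Groups came from the sample titles. Members were found by the rule given in the report, with no clustering. The members and gene lists were chosen with earlier results of these data known. UMI counts were summed per library and class and tested with edgeR 4.0.16 (glmQLFit, glmQLFTest, TMM, filterByExpr; R 4.3.3), with Benjamini-Hochberg adjustment over all tested genes and a threshold of 0.05. Each SE was derived from the fold change and its F statistic, as |log2FC|/sqrt(F). DESeq2 1.42.0 was an alternative. The fits were tested on simulated data. Doublets stayed in; an alternative removed the 6% of nuclei with the highest Scrublet scores (scanpy 1.11.5). Named genes were the 12 largest changes in each direction past the threshold (6 for the interaction) with at least 20 CPM in the higher group (over all sums for the interaction), excluding predicted genes and genes of the rule, and up to 4 genes of each of 29 lists with the smallest p. Results for some genes that the rule names are not reported here.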

Additional observations from a re-analysis of the deposited data

Results flagged for a closer look

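The cKO effect differed between resting and activated fibroblast nuclei by the interaction term of edgeR for the 11 genes named here, each given as the log2 fold change in resting minus that in activated nuclei. The rule set these classes apart by activation genes, so for genes that go with activation such a difference is fixed in part. The cKO effect was higher in resting nuclei for Kcnk3 (3.30), Ano1 (3.02), Cacnb4 (2.90), Mdga2 (2.74) and Clu (2.64). Their calls held in 9 of 13, 9 of 13, 8 of 13, 10 of 13 and 3 of 14 alternatives, in that order. DESeq2 called none of the interactions. Ano1 is on the mural list and gave 13 and 27 UMIs in control and 3 and 35 in cKO resting nuclei. The cKO effect was lower in resting nuclei for Fn1 (-2.83), Dclk1 (-1.95), Bnc2 (-1.81), Dlg2 (-1.71), Slit2 (-1.62) and Aspn (-1.53), an asporin gene of the matrix. These calls held in 10, 10, 11, 10, 8 and 10 of 14 alternatives, in that order. Dclk1 measured 213 and 291 CPM in control and 81.0 and 112 CPM in cKO resting nuclei, and 114 and 324 against 319 and 389 CPM in activated nuclei. Slit2, a secreted guidance gene, measured 256 and 352 against 81.0 and 172 CPM in resting and 150 and 298 against 342 and 352 CPM in activated nuclei. For Dclk1 and Slit2 the resting nuclei of both cKO libraries were below those of both controls. In cKO 1 both values rested on few UMIs, since 1 UMI stood for 19.4 CPM of the unscaled sum there. Mdga2 gave 1 UMI in the resting nuclei of cKO 1 and 39 in those of cKO 2.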

How the results depend on the processing

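Of the 929 nuclei 29 were in cKO 1. The log2 ratio of the resting share (cKO over control, -2.87) ranged from -3.28 to -2.55 when 1 library was left out, and kept its direction in every alternative run. It was -4.52 with at most 1% mitochondrial UMIs, where cKO 1 had 0 of 53 resting nuclei (so no fit across genes was possible), -3.46 in nuclei thinned to 1000 UMIs, -3.53 with at least 5 resting UMIs, -1.50 without the exceed clause and -2.29 without Col8a1. Chosen after seeing the data were the threshold of 5 resting UMIs, the rule without Col8a1, the removal of nuclei with other markers, with 1% or more cardiomyocyte UMIs or with the most UMIs, all fibroblast nuclei and, for the share, the dropped exceed clause. For cKO against control in the members, genes higher (12 as reported) and lower (0) were 2 and 0 with DESeq2, 15 and 1 without the expression filter, 0 and 0 with at least 1000 UMIs, at least 3 resting UMIs, thinning or the rule without Col8a1, 1 and 0 with at least 5 resting UMIs, 2 and 0 without Hsd11b1, 4 and 0 under 1% cardiomyocyte UMIs or without nuclei holding other markers, 5 and 0 without the deepest member, 54 and 20 without the exceed clause and 238 and 150 in all fibroblast nuclei; leaving out 1 library gave 5 to 46 and 0 to 16. Nrg1 turned to -1.18 without cKO 1 and was 4.72 without cKO 2. A replicate block on the numbers R1 and R2 gave 41 and 18. The deviations of same-numbered libraries correlated at 0.083. Fibroblasts, however, made up 16.4% and 16.5% of kept nuclei in control 1 and cKO 1, and 20.1% and 20.1% in control 2 and cKO 2. Whether same-numbered libraries share more than a number was not tested. For resting against activated nuclei, genes higher (23) and lower (44) were 12 and 18 with DESeq2, 45 and 85 without the filter, 50 and 59 under 1% cardiomyocyte UMIs and 42 and 57 without nuclei holding other markers, and 1 to 17 and 12 to 42 with 1 library left out. For the interaction, effects higher (37) and lower (12) were 0 and 0 with DESeq2, 26 and 23 without the filter, 62 and 12 with at least 1000 UMIs, 16 and 8 with at least 3 own UMIs, 57 and 16 without the highest Scrublet scores and 7 and 4 without nuclei holding other markers, and 12 to 31 and 1 to 8 with 1 library left out. Causes were not tested.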

Other observations

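Some genes that did not pass in the resting nuclei had groups that did not overlap, an order with p = 0.333 in a two-sided exact permutation test. The share of all tested genes with that order is not given, so these values are a description. Nkain2, which encodes a partner of the sodium pump, measured 652 and 839 CPM in control members, 0 UMIs in cKO 1 and 359 CPM in cKO 2 (log2 fold change -1.60, SE 0.41, edgeR adjusted p = 0.114). In cKO 1, 3 UMIs would be 58.3 CPM of the unscaled sum. Ccbe1, which encodes a matrix protein of lymphatic growth, measured 577 and 620 against 159 and 309 CPM (-1.19, SE 0.33, adjusted p = 0.136). Blnk, an adaptor gene known from B cells, measured 221 and 212 against 68.3 and 74.8 CPM (-1.55, SE 0.43, adjusted p = 0.124), on 3 UMIs in cKO 1. The transcription factor gene Zeb1 measured 2186 and 2756 against 933 and 1520 CPM (-0.97, SE 0.32, adjusted p = 0.301). Nkain2, Ccbe1 and Blnk were picked after their values were seen.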
